A study of Mus musculus with 12 samples.

Results

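Gene expression in the hippocampus was compared with that in the prefrontal cortex of APLP2-KO mice, which lack the amyloid precursor-like protein 2. Each difference was taken between the 3 hippocampus and 3 cortex arrays of this genotype, 6 of the 12 arrays of the study. The comparison ran across 45037 non-control probe sets. All mice were female adults of 38 to 40 weeks on a C57BL/6 background after 6 generations of back-crossing, and the mutants here were APLP2-/-. The other 6 arrays, 3 per tissue, came from APPsα-DM mice (APPα/αAPLP2-/-), which carry the same Aplp2 deletion and in addition an App allele altered to encode the secreted APPsα fragment. Brains were kept at low temperature in RNAlater, and the 2 regions were then dissected from them, so each array holds the RNA of a whole piece of tissue. No wild-type array was analysed here, so the tissue differences below are those of mice without Aplp2, and what Aplp2 loss itself changes was not tested. The labels do not say whether a replicate number marks 1 animal in both tissues. The p-values measure the spread within the groups, estimated over all 12 arrays of both genotypes. The fit does not pair same-numbered arrays, except where the replicate block is named.

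The hippocampus is built of densely packed principal neurons: granule cells of the dentate gyrus and pyramidal cells of the CA fields, with the subiculum as its output. The prefrontal cortex is layered, with upper layers that connect cortical areas and deep layers that project to the thalamus and other subcortical targets. Both contain interneurons that release GABA, and both depend on glutamate receptors, neuromodulators and calcium signals. Members of the gene families that serve these tasks can differ in level between regions. The striatum, rich in dopamine-receptive spiny neurons, lies beneath the frontal cortex.

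Probe sets were tested on log2 signals with limma, and a probe set was called where its Benjamini-Hochberg adjusted p was under 0.05 over all 45037. By this rule 5672 probe sets differed between the tissues, which is 12.6% of those tested. Of them 2529 were higher in the hippocampus (5.62%) and 3143 were lower (6.98%). With 1 probe set for each gene, the one of highest mean signal, 2998 of 18193 genes differed (16.5%): 1233 were higher (6.78%) and 1765 lower (9.70%). These gene shares are the background against which the counts below should be read. The differences were mostly moderate, with a median absolute size of 0.47 log2 units among called genes. At least 2-fold differences in signal were seen for 166 higher and 237 lower genes, at least 4-fold ones for 31 and 34, and at least 8-fold ones for 11 and 5. In 2994 of the 2998 called genes the 3 hippocampus and 3 cortex arrays did not overlap, as against 6656 of all 18193 genes (36.6%).

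Within a tissue the arrays agreed closely, with correlations of 0.9953 to 0.9972 over 6 pairs, against 0.9871 to 0.9913 over the 9 pairs that join different tissues. The first principal component of the 6 arrays held 63.01% of their variance and put the 3 cortex arrays on one side and the 3 hippocampus arrays on the other. The median standard deviation of a gene was 0.0881 log2 units over the cortex arrays and 0.0824 over the hippocampus arrays. Aplp2 read 9.98, 10.13 and 10.15 in cortex and 9.85, 10.03 and 10.14 in hippocampus, and its level did not pass the test between tissues. Since both genotypes carry the deletion and which part of the gene the probes read was not determined, this signal is no check of the labels. App read 13.46 in both tissues on average.

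**Figure D1:**
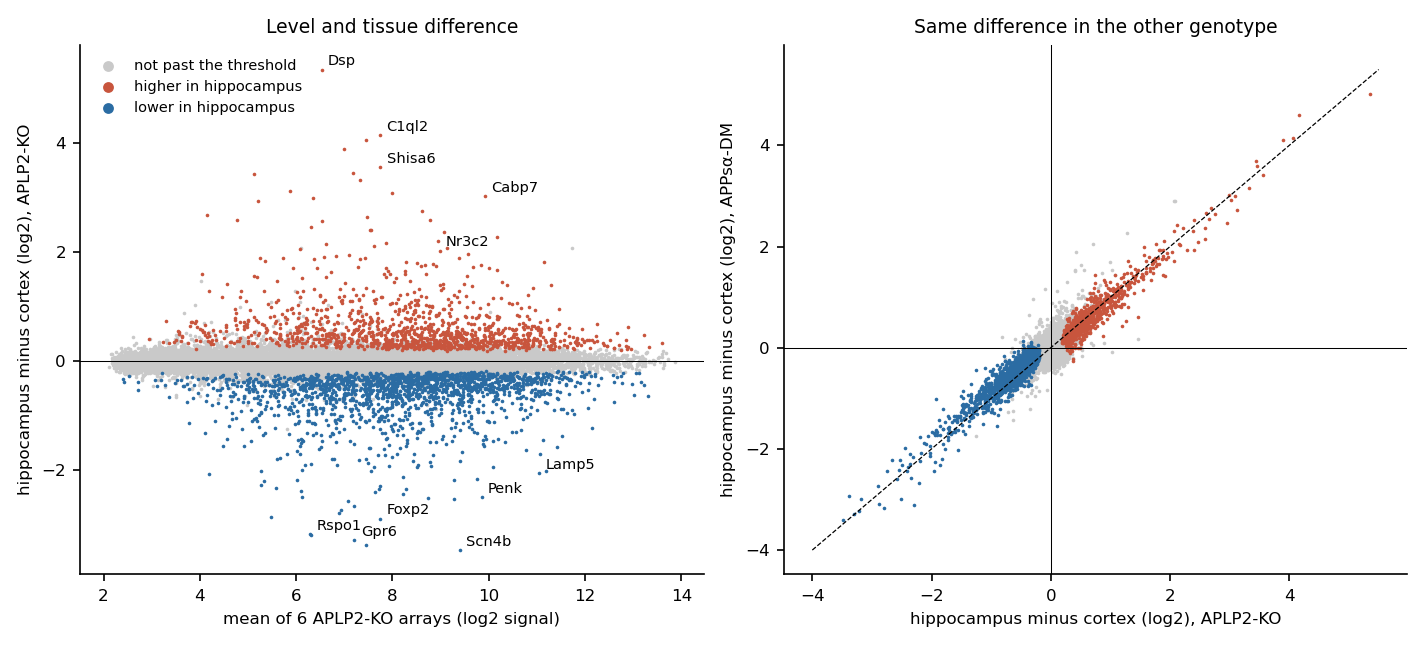
Left, each gene's mean log2 signal over the 6 APLP2-KO arrays against its hippocampus minus cortex difference, with the 1233 genes higher and the 1765 lower in hippocampus in colour. Right, the same difference in APLP2-KO against that in APPsα-DM, with the dashed line marking equal differences.

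Of the 20 genes with the largest differences in favour of the hippocampus, 4 were on the list of dentate granule cell markers, namely Dsp, C1ql2, Lct and Tdo2. Dsp, encoding desmoplakin, a component of desmosomes, read 3.52, 3.37 and 4.66 in cortex and 8.84, 9.0 and 9.77 in hippocampus. Its difference in signal was 5.36 ± 0.36 log2 units (SE, adjusted p = 1.03e-06). C1ql2, a secreted synaptic organizer of the C1q family, read 5.73, 5.52 and 5.73 against 9.60, 9.67 and 10.19. Its difference was 4.16 (adjusted p = 1.60e-08). Npy2r, the Y2 receptor for neuropeptide Y, read 5.38, 5.39 and 5.47 against 9.45, 9.46 and 9.5, a difference of 4.06 (adjusted p = 3.61e-09). Only called genes whose arrays did not overlap between tissues could enter this ranking. For these genes the lowest hippocampus array lay far above the highest cortex array. The background of the arrays was not measured here, and a cortex signal under 6 may hold little of the gene's own RNA. For genes under 6 in 1 tissue the difference in signal is therefore given without a fold and may understate the change in RNA. Lct, lactase, differed by 3.90 log2 units, Shisa6, an auxiliary protein of AMPA receptors, by 3.56, and Spink8, a serine protease inhibitor, by 3.46. Also among the 20 largest rises were Lhx9, a LIM homeodomain factor, at 3.44 and Fibcd1, a receptor that binds acetylated ligands, at 3.32. Pkp2, plakophilin 2, which like desmoplakin belongs to desmosomes, read 6.26, 6.29 and 6.74 in cortex and 9.37, 9.48 and 9.72 in hippocampus.

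The promoters of a few of these genes and of 3 of the largest falls are shown because members of the same marker list moved together. They are RefSeq sequences on GRCm38.p6, from 250 bases before to 50 after the start, with capitals marking matches on either strand to CAGCTG and CATCTG (E-boxes), AGGTCA (a nuclear receptor element), TGACGTCA (a cAMP response element) and GGGCGG (a GC box). Overlapping matches were counted separately. Dsp lies at chr13:38151044-38151343 (+ strand), C1ql2 at chr1:120340332-120340631 (+ strand), Tdo2 at chr3:81975679-81975978 (- strand), Scn4b at chr9:45138374-45138673 (+ strand), Drd2 at chr9:49340153-49340452 (+ strand) and Gpr6 at chr10:41072241-41072540 (- strand).
Dsp: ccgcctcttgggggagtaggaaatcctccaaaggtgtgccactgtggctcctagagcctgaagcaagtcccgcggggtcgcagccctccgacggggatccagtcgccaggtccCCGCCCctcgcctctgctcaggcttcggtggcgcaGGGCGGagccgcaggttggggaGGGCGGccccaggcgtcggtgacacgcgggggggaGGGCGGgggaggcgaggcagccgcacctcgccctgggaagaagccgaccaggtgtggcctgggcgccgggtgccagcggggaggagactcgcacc
C1ql2: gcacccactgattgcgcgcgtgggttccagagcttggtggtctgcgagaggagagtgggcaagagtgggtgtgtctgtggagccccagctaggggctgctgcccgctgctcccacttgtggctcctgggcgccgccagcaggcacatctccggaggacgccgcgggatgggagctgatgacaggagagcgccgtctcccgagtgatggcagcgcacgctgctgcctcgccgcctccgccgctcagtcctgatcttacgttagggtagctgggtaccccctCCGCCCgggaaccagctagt
Tdo2: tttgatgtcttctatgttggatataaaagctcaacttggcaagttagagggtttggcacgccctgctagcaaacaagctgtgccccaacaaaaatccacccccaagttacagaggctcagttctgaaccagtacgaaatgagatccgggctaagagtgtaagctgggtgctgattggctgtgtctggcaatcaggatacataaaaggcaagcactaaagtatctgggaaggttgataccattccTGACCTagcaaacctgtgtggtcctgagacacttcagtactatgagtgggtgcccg
Scn4b: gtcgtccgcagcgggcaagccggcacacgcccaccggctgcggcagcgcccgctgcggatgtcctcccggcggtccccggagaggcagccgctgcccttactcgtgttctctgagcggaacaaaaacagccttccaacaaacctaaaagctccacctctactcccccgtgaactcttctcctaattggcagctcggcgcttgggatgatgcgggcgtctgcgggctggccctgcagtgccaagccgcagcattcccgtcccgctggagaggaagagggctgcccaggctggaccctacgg
Drd2: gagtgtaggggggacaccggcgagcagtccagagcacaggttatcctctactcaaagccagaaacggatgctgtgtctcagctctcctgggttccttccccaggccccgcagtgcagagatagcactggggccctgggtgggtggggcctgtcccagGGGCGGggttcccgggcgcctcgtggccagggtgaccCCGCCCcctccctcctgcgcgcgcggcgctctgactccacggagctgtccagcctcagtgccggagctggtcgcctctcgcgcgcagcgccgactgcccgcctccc
Gpr6: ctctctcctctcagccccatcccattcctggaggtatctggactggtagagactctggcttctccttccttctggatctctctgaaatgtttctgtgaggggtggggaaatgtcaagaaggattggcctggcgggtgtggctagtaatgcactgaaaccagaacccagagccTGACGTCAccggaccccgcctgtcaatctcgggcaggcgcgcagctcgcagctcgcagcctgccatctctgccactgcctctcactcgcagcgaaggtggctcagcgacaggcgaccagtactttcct
The Dsp window held 4 matches to GGGCGG, and the Gpr6 window held the only match to TGACGTCA among the promoters of the 20 largest falls. Promoters were matched for 13 of the 20 largest rises (14 windows) and for 15 of the 20 largest falls (20 windows). GGGCGG was present in 42.9% of the rise windows, 50% of the fall windows and 35.7% of all 32851 windows. CAGCTG was present in 14.3%, 5% and 16.3%, and AGGTCA in 14.3%, 10% and 16.3%. The median count of CpG dinucleotides per window was 5.5 for the rises, 23.0 for the falls and 7.0 for all windows. A match is a description of letters and no test was made.

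Of the 20 genes with the largest differences in favour of the cortex, 7 were on the list of striatal neuron markers described further on. Scn4b, a beta subunit of sodium channels, read 11.23, 11.20 and 10.98 in cortex and 8.05, 7.54 and 7.39 in hippocampus, a difference of -3.48 ± 0.19 (SE), or 11.2-fold lower (adjusted p = 2.71e-07). Myl4, a myosin light chain, read 9.06, 9.01 and 9.36 against 5.92, 5.78 and 5.60, a difference of -3.38 (adjusted p = 3.74e-08). Rspo1, an R-spondin that amplifies Wnt signals, read 8.04, 8.05 and 7.54 against 4.86, 4.78 and 4.46 (-3.18, adjusted p = 8.83e-07). As for the rises, arrays that did not overlap between tissues were a condition for entering this ranking. Foxp2, a forkhead factor of deep layer and striatal neurons, differed by -2.90 log2 units. Tnnc1, a troponin C, differed by -2.58, Dkkl1, a relative of the Dickkopf proteins, by -2.75, and Coch, cochlin, by -2.36. Rasgrp2, Rasgef1c and Rasgef1b, exchange factors for small GTPases, differed by -2.41, -2.67 and -2.36. All 40 of the largest rises and falls had the same call under every alternative that was run. They were picked for their size on these same arrays, so this is no separate support. Of all 331 named genes that passed, 65 lost the call under at least 1 alternative.

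Marker lists of hippocampal cells were compared next. They were chosen with earlier results of these data known, so their counts are no separate support for the identity of the pieces. Of 26 measured markers of dentate granule cells, 17 were higher in hippocampus and 2 lower, with a median difference of 0.56 log2 units, where the median over all genes was -0.01. Besides Dsp, C1ql2 and Lct, Tdo2, which degrades tryptophan, read 3.78, 4.42 and 4.73 in cortex against 7.46, 7.29 and 7.56. Prox1, the homeobox factor that sets granule cell fate, read 5.60, 5.72 and 5.20 against 6.66, 6.6 and 6.78, a difference of 1.17 ± 0.12 (SE, adjusted p = 4.11e-05). Penk, proenkephalin, and Pdzrn3, a ubiquitin ligase, were the 2 lower members, at -2.50 and -1.42. Calb1, calbindin, a marker that cortical neurons share, differed by 0.06 and did not pass the test. Of 31 markers of CA pyramidal cells, 17 were higher and 5 lower, with a median of 0.64. St18 and Lmo1, transcriptional regulators, differed by 1.95 and 1.66. Neurod6, a neuronal bHLH factor, read 9.49, 9.67 and 9.87 in cortex and 11.18, 10.93 and 11.08 in hippocampus. Zbtb20, a zinc finger factor needed for CA1 identity, read 9.10, 8.87 and 8.89 against 10.12, 10.27 and 10.62. Pcp4, a calmodulin-binding protein, went the other way, at -1.23. Among 12 subicular and entorhinal markers 4 were higher and 3 lower, and 4 and 1 without cortex replicate 1. Gpr101, an orphan receptor, and Nts, neurotensin, were higher at 2.95 and 2.58, while Scn4b, one of the 20 largest falls, was lower. The median of this list was 0.09.

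Markers of the cortical layers were called in both directions. Of 22 upper layer markers 13 were lower in hippocampus and 3 higher, with a median of -0.57. Lamp5, a lysosome-associated protein of upper layer neurons and some interneurons, read 12.05, 12.12 and 12.07 in cortex and 10.22, 10.06 and 9.77 in hippocampus (4.18-fold lower, adjusted p = 1.74e-07). Cux2 and Rorb, transcription factors of upper layers, differed by -1.49 and -1.29, and Kcnh5, a potassium channel, by -2.03. Matn2, matrilin 2, was higher in hippocampus, at 1.14. Of 34 deep layer markers 14 were lower and 8 higher, with a median of -0.17. Tbr1, a T-box factor of layer 6 neurons, read 9.15, 9.29 and 9.21 against 8.28, 7.89 and 7.57, and Foxp1 and Deptor, an inhibitor of mTOR, differed by -1.10 and -1.14. Foxp1 is also on the striatal list. Crym, a thyroid hormone binding protein, ran against the list's direction, reading 9.23, 9.25 and 9.51 in cortex and 10.99, 11.07 and 10.98 in hippocampus. In these bulk pieces, fewer cells of a type and less RNA per cell cannot be told apart.

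**Figure D2:**
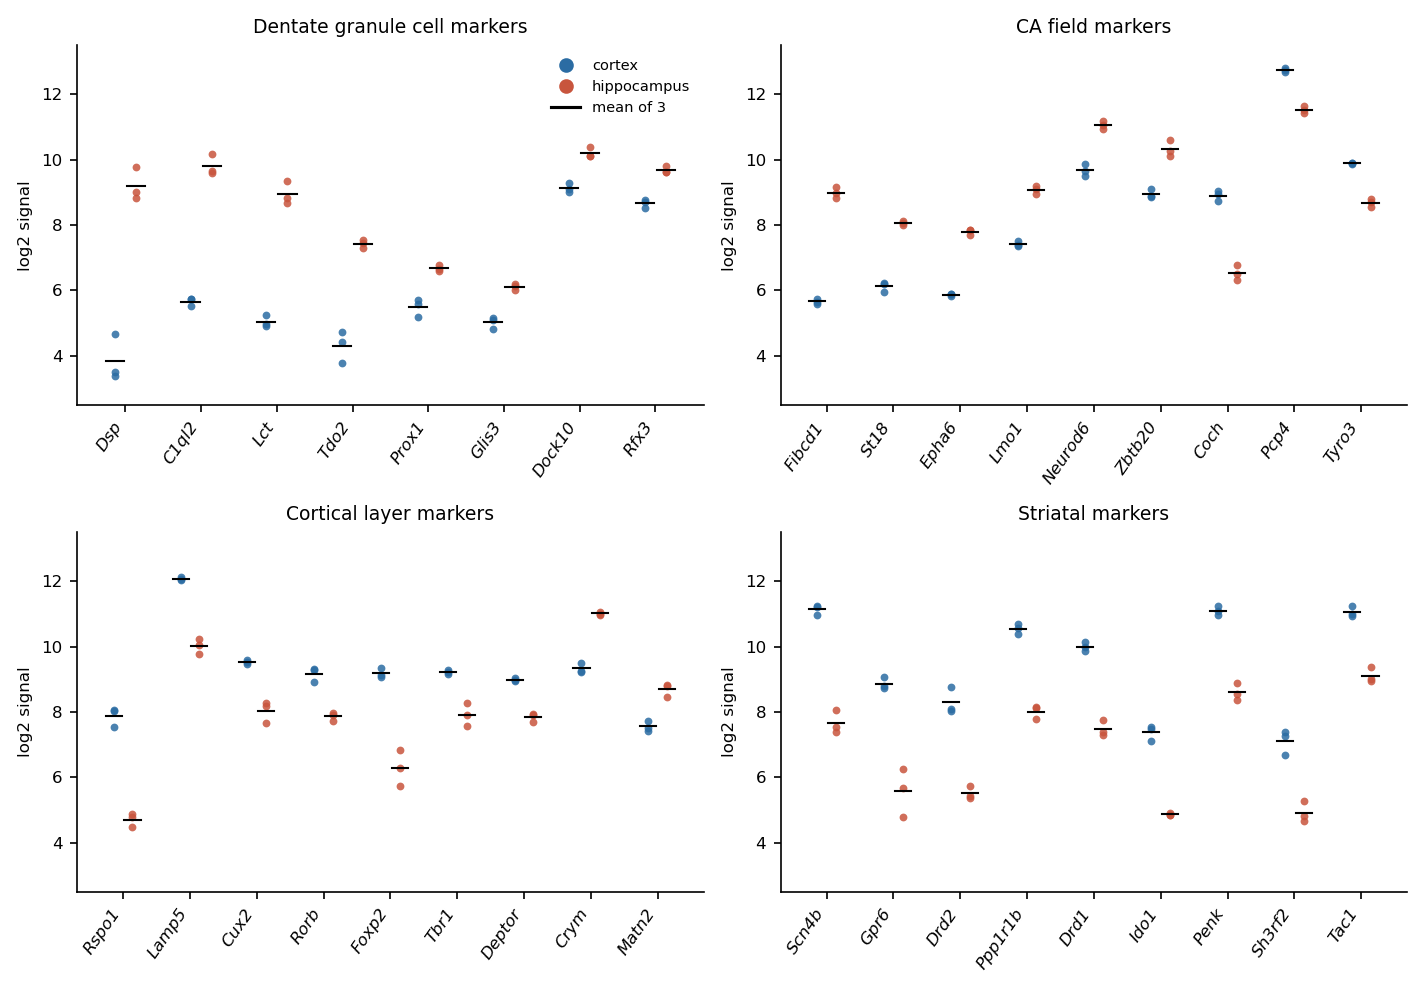
Log2 signal of marker genes on each of the 6 APLP2-KO arrays, with a bar at the mean of 3 arrays. Dentate genes such as Dsp lie higher in hippocampus, striatal genes such as Scn4b lie lower, and Coch, Pcp4, Crym and Matn2 run against the direction of most of their list.

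Markers of the striatum were lower in hippocampus in nearly every case. Of 27 striatal markers 24 were lower in hippocampus and 0 higher, with a median of -1.81. Gpr6, an orphan receptor of spiny neurons, read 9.06, 8.80 and 8.74 in cortex and 6.25, 5.67 and 4.78 in hippocampus. Drd2 and Drd1, the dopamine receptors of the indirect and direct pathways, differed by -2.79 and -2.53, and Ppp1r1b, the phosphatase regulator DARPP-32, by -2.54. Ido1, which degrades tryptophan, differed by -2.51 and Penk by -2.50. The list held 21 of the 237 genes lower by at least 2-fold. The mean of the list, each gene centred over the 6 arrays, was 1.03, 0.81 and 0.68 in the cortex pieces and -0.69, -0.90 and -0.93 in the hippocampus pieces. Several members are also expressed in deep layer neurons, and Drd1 and Foxp1 are on both lists. The part of striatal tissue in the cortex pieces was not tested.

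Other markers varied between arrays of 1 tissue. Ttr, transthyretin, the main product of the choroid plexus, read 9.31, 8.69 and 14.03 in cortex and 10.63, 13.43 and 14.21 in hippocampus, and did not pass the test. Of 32 choroid plexus markers 2 were higher in hippocampus and 0 lower, and 1 and 0 when any 1 of the 6 arrays was left out or with the replicate block. The list mean ran from -0.60 to 0.51 in cortex and from -0.24 to 0.77 in hippocampus. With that mean as a covariate, 5201 probe sets were called in place of 5672, and the list itself had 4 higher and 1 lower. Gabra6 and Pcp2, genes of cerebellar granule and Purkinje cells, read 7.39 and 7.96 in hippocampus replicate 3 and no more than 3.67 and 5.14 on the other 5 arrays. This list of 17 cerebellar genes was added after values were seen, and its mean was 0.73 in that array against -0.19 to -0.09 on the others. Gabra6, Pcp2 and Shox2 were likewise chosen after their values were seen. Shox2, a thalamic homeobox gene, read 5.43 in cortex replicate 1 and 2.96 to 3.29 elsewhere, and the thalamic list mean was 0.32 there and -0.14 to 0.03 on the others. Without hippocampus replicate 3, 4192 probe sets were called, and without cortex replicate 1, 4549. Cbln1 and Neurod1, which the cerebellum also expresses, were higher in all 3 hippocampus arrays, at 8.19, 8.15 and 8.70 for Cbln1 against 7.18, 7.12 and 7.23 in cortex.

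**Figure D3:**
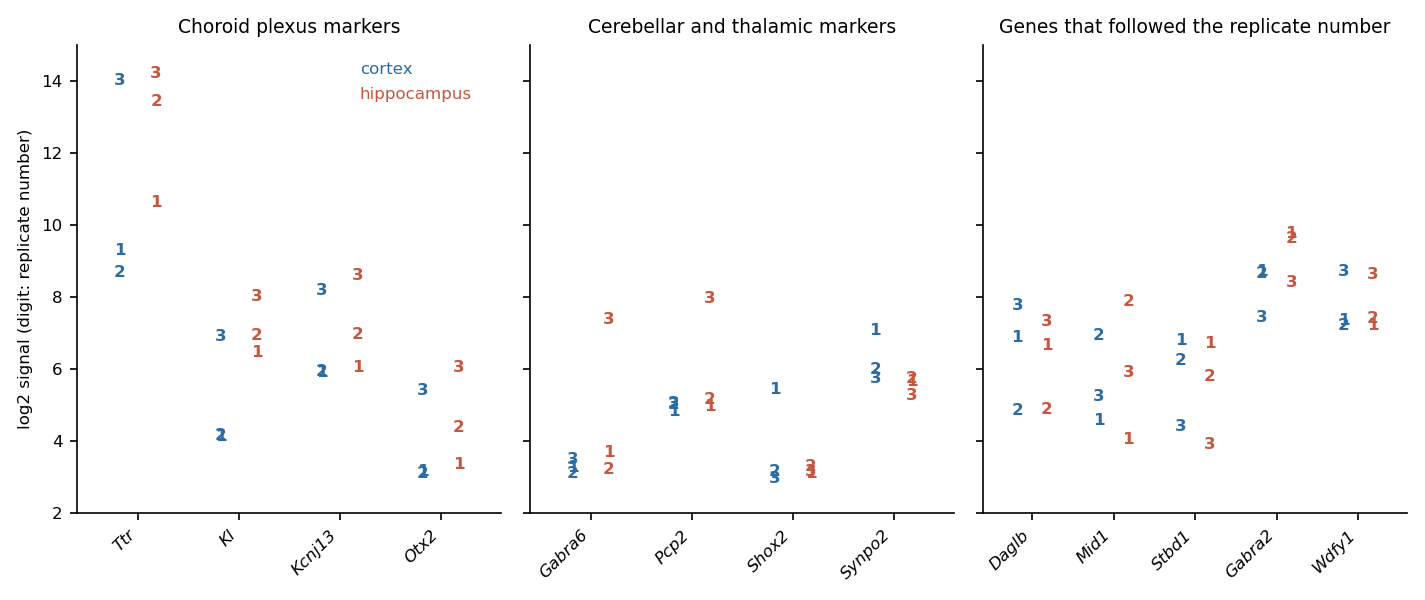
Log2 signal on each array, drawn as its replicate number, in cortex and hippocampus. Ttr reads 14.03 in cortex replicate 3 and 13.43 and 14.21 in hippocampus replicates 2 and 3, Gabra6 and Pcp2 stand out in hippocampus replicate 3, Shox2 in cortex replicate 1, and Daglb, Mid1 and Stbd1 keep their order by replicate number in both tissues.

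Some genes followed the replicate number in place of the tissue, and these were chosen after their values were seen. Daglb, a diacylglycerol lipase, read 6.88, 4.85 and 7.76 in cortex and 6.66, 4.87 and 7.33 in hippocampus. Stbd1, which binds glycogen, read 6.80, 6.23 and 4.41 against 6.71, 5.80 and 3.89. Mid1, a ubiquitin ligase, read 4.57, 6.94 and 5.23 against 4.04, 7.87 and 5.89. Each pair of same-numbered arrays was alike in these genes. Gabra2, a GABA-A subunit, was higher in hippocampus within each number, at 8.71, 8.66 and 7.43 against 9.78, 9.64 and 8.41. Its difference of 1.01 did not pass the test (adjusted p = 0.145 in limma) but did with the replicate block, which pairs same-numbered arrays (adjusted p = 4.31e-05), and without hippocampus replicate 3 (adjusted p = 0.0362). Stbd1, at -0.34, passed only with the block among the alternatives run (adjusted p = 0.0469). Fos, the immediate early gene, read 9.72, 8.95 and 7.73 against 9.54, 7.98 and 6.96.

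Glutamate receptor genes differed by subunit. Gria1, the AMPA receptor subunit most tied to plasticity, read 10.24, 10.10 and 10.39 in cortex and 11.44, 11.56 and 11.77 in hippocampus, 2.54-fold higher (adjusted p = 2.95e-06). Gria4 was lower, at -0.48, and among kainate subunits Grik4 was higher at 0.72 and Grik3 lower at -0.85. Of 9 AMPA and kainate subunits 4 were higher and 2 lower. Of 6 NMDA subunits 2 were higher and 0 lower, and 1 and 0 without cortex replicate 3 or hippocampus replicate 1 or 2, with Grin2a at 0.67, while Grin2b differed by 0.01. Of 6 metabotropic receptors 1 was higher, Grm5 at 0.48, and 3 were lower, among them Grm3 at -1.05 and Grm4 at -0.82.

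GABA-A receptor subunits also differed by gene. Gabra5, a subunit of extrasynaptic receptors abundant in the hippocampus, read 8.35, 8.59 and 8.77 in cortex and 10.53, 10.44 and 10.65 in hippocampus (3.91-fold higher, adjusted p = 4.87e-07). Gabrd, the delta subunit of other extrasynaptic receptors, read 9.44, 9.28 and 9.19 against 7.57, 7.53 and 7.68 (3.27-fold lower, adjusted p = 1.83e-07). Gabra3 differed by -1.11 and Gabrb1 by 0.64. Of 16 subunits 2 were higher and 4 lower, and 2 and 2 without hippocampus replicate 2. Among 37 interneuron markers 7 were higher and 10 lower, and 4 and 8 without cortex replicate 2. Vip, vasoactive intestinal peptide, differed by -1.12 and Nos1, the neuronal nitric oxide synthase, by 1.17, while Gad1, which makes GABA, differed by 0.00.

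Monoamine and peptide receptor genes were called in both directions. Of 13 serotonin receptors 5 were higher and 2 lower, and 4 and 1 without cortex replicate 2 or 3 and 5 and 1 without cortex replicate 1 or hippocampus replicate 2 or 3. Htr4 read 5.32, 4.73 and 4.55 in cortex and 7.85, 7.77 and 7.93 in hippocampus, a difference of 2.99, and Htr5b and Htr1a differed by 1.89 and 0.77. Htr1f was lower, at -0.66. Of 6 adrenergic and dopamine receptors 3 were lower, with Adra1b at -1.45 beside Drd1 and Drd2, and 0 higher. Neuropeptides were called in 18 of 35 cases, 6 higher and 12 lower, and their receptors in 17 of 41, 11 higher and 6 lower. With any 1 of the APLP2-KO arrays left out, 4 neuropeptides were higher and 10 to 12 lower. For the receptors 9 to 10 were then higher and 6 lower. Npy, the ligand of Npy2r, read 11.34, 11.31 and 11.29 in cortex and 10.25, 10.17 and 10.42 in hippocampus, 2.04-fold lower, while the signal of the receptor gene was higher by 4.06. Cckbr, a cholecystokinin receptor, differed by -1.86, while Cck itself differed by -0.08 and did not pass. Tac1, which encodes substance P and is also on the striatal list, differed by -1.96, and Grp, gastrin-releasing peptide, by 1.77. Chrna7, the alpha7 acetylcholine receptor subunit, differed by 0.89. Of 18 acetylcholine receptors 2 were higher and 1 lower, 2 and 2 without cortex replicate 1, 2 and 0 without cortex replicate 2, 1 and 0 without cortex replicate 3 or hippocampus replicate 3, and 1 and 1 without hippocampus replicate 1 or 2. The count was 1 and 2 with the replicate block. In the reported fit 16.7% of acetylcholine receptors were called, near the 16.5% of all genes.

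Steroid receptors contrasted in the same pieces. Nr3c2, the mineralocorticoid receptor, read 8.02, 7.86 and 8.01 in cortex and 10.01, 9.91 and 10.04 in hippocampus, a difference of 2.03 ± 0.11 (SE) and 4.07-fold higher (adjusted p = 2.07e-07). Nr3c1, the glucocorticoid receptor, read 10.10, 10.15 and 10.07 against 9.90, 9.70 and 9.59, a difference of -0.38 (adjusted p = 0.0183). The arrays overlapped in neither gene. Nr3c1 was chosen after its values were seen, and its call was lost without cortex replicate 2 (adjusted p = 0.0665), hippocampus replicate 2 (0.0661) or hippocampus replicate 3 (0.0828) and with its probe sets averaged (0.126). Of 28 genes of steroid signalling 8 were higher and 9 lower. Crh, corticotropin-releasing hormone, differed by -1.52, Fkbp5, a chaperone of these receptors, by 0.89, and Rarb and Rxrg, retinoid receptors, by -1.83 and -1.81. Rarb and Rxrg are also on the striatal list.

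Ion channel genes were called in both directions. Of 86 potassium channel genes 27 were lower and 5 higher, with a median of -0.13. Kcnh5 read 6.14, 6.55 and 6.19 in cortex and 4.21, 4.37 and 4.22 in hippocampus, and Kcnv1, Kcnh1 and Kcns1 differed by -1.18, -1.17 and -1.09. Of 11 sodium channel genes 1 was higher, the beta subunit gene Scn3b at 1.22, and 2 were lower, Scn4b and Scn1a at -3.48 and -0.79. Of 24 calcium channel genes 3 were higher, among them Cacna1h at 1.02, and 7 lower, among them Cacna2d2 at -0.78. Trpc4, a cation channel, differed by 1.59. Its list of 49 TRP, chloride and gap junction genes had 6 higher and 4 lower, 3 and 4 with the replicate block or without hippocampus replicate 3, and 3 and 3 without cortex replicate 2. The share of this list called, 20.4%, was near the 16.5% of all genes.

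Calcium and second messenger genes differed between close relatives. Cabp7, a calcium-binding protein, read 8.58, 8.40 and 8.25 in cortex and 11.31, 11.43 and 11.57 in hippocampus, 8.16-fold higher, while Cabp1 read 8.81, 8.82 and 8.69 against 7.42, 7.41 and 7.39, 2.58-fold lower. Of 44 genes of this group 11 were higher and 15 lower, and 7 and 15 without hippocampus replicate 3. Among 65 genes of protein kinase C, cAMP and G protein signalling 29 were lower and 8 higher, with a median of -0.27. Arpp19 and Arpp21, phosphatase regulators, differed by -2.03 and -1.72, Rgs9, a regulator of G protein signalling, by -1.85, and Pde10a, a phosphodiesterase of spiny neurons, by -1.47. Arpp21, Rgs9 and Pde10a are also on the striatal list, whose means are given above.

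Synaptic proteins also divided within families. Homer3, a scaffold of metabotropic receptors, read 6.36, 6.29 and 6.53 in cortex and 8.21, 8.12 and 8.47 in hippocampus, and Homer1, chosen after its values were seen, differed by -0.60. Cbln1 and Cbln2, secreted organizers, differed by 1.17 and -1.73. Doc2b, a calcium sensor of release, read 8.40, 8.05 and 7.85 against 10.09, 10.08 and 10.34, and its relative Doc2a 9.36, 9.02 and 9.39 against 8.16, 8.10 and 7.74. Of 52 postsynaptic scaffold genes 12 were higher and 18 lower. Of 64 vesicle release genes 12 were higher and 20 lower, including Rims3 at -1.85 and Stx1a, a syntaxin, at -1.38, while Syt1 and Snap25, the general release machinery, differed by -0.09 and -0.08 and did not pass.

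Guidance and adhesion genes were called in both directions, receptors as well as ligands. Nrp1 and Nrp2, neuropilin receptors for class 3 semaphorins, read 8.89, 8.91 and 9.03 in cortex for Nrp1 and 10.65, 10.74 and 10.76 in hippocampus, with differences of 1.77 and 1.66. Sema3a, a ligand of Nrp1, read 8.68, 8.52 and 8.50 against 6.65, 6.68 and 6.27, 4.09-fold lower. Of 31 semaphorin, plexin and neuropilin genes 6 were higher and 6 lower, and 10 and 8 with dim probe sets left out. Epha6 differed by 1.93, Epha3 by 1.22 and Epha7 by 1.20, while the ligand Efna5 differed by -1.46 and Ephb6 by -1.24. Of 21 ephrin and Eph genes 6 were higher and 6 lower, and 5 and 3 without cortex replicate 2 or hippocampus replicate 3. Slit1 differed by 1.80. Of 35 protocadherins 4 were higher and 3 lower, and 4 and 5 without hippocampus replicate 1. For protocadherins the share called in the reported fit was near the 16.5% of all genes. Pcdh20 read 7.53, 7.57 and 7.36 against 9.90, 10.03 and 10.31, and Pcdh7 differed by -1.33. Rspo2 differed by 0.66 where Rspo1 differed by -3.18.

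**Figure D4:**
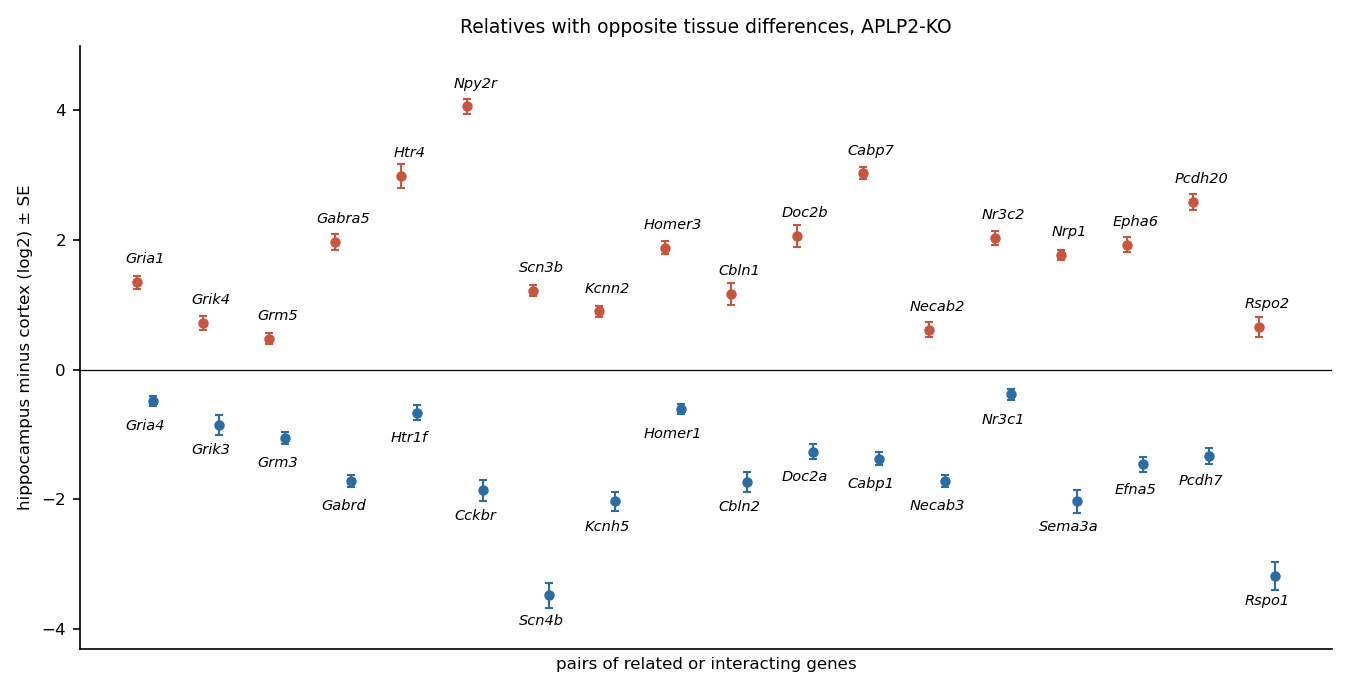
Hippocampus minus cortex differences (log2, ± SE from the fit) for pairs of related or interacting genes that moved in opposite directions. The pairs were chosen after their values were seen, and each gene passed the test.

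Transcription factors were called often and in both directions, 27 higher and 28 lower of 83 forebrain factors. Activity-regulated genes numbered 8 higher and 14 lower of 49, and 8 and 9 without cortex replicate 2 or hippocampus replicate 3. Bdnf, the neurotrophin, read 7.84, 8.13 and 7.93 in cortex and 8.98, 8.94 and 9.32 in hippocampus (2.17-fold higher, adjusted p = 1.09e-04). Jun, an AP-1 subunit, read 9.11, 8.66 and 8.54 against 10.31, 10.36 and 10.36. Both stood higher in all 3 hippocampus arrays, while Fos did not pass.

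Glial markers were mixed, with astrocyte genes called and microglial genes not. Of 37 astrocyte markers 11 were higher and 2 lower, with a median of 0.19. The count was 5 and 1 without cortex replicate 2 or hippocampus replicate 2, 5 and 3 without cortex replicate 3, 6 and 1 without hippocampus replicate 1 and 11 and 1 without cortex replicate 1. It was 15 and 4 with dim probe sets left out, 14 and 5 with a trended and robust variance prior, 14 and 1 with probe sets averaged, and 8 and 1 with the replicate block or on the 6 arrays alone. Gfap, the astrocyte filament, read 8.90, 8.75 and 8.63 in cortex and 10.02, 9.95 and 9.86 in hippocampus, 2.27-fold higher (adjusted p = 1.94e-05). Agt, angiotensinogen, differed by 1.59 and Aqp4, a water channel, by 0.61, but Slc1a2, the main glutamate transporter, differed by -0.15 and did not pass. Of 35 oligodendrocyte genes 1 was higher and 1 lower, 0 and 6 with the replicate block and 0 and 3 without hippocampus replicate 1, and no more than 1 in all without any other array, and Mbp, myelin basic protein, differed by -0.02. Of 29 microglial genes 0 were called in either direction by limma (4 at an unadjusted p under 0.05), and 1 was lower without cortex replicate 2 or 3. The count was also 0 and 1 with dim probe sets left out, quantile normalization, median centring or probe sets averaged. Csf1r and Ctss differed by 0.00. Of 79 respiratory chain subunits 0 were higher and 1 lower, the muscle-type Cox6a2 at -0.68, with a median of -0.01. Dcn, decorin, a secreted proteoglycan, read 7.96, 7.86 and 7.81 against 10.29, 10.44 and 10.02 and was 5.20-fold higher. It is on the list of smooth muscle, leptomeningeal and fibroblast genes, of which 4 of 30 were higher and 1 lower. The share of that list called, 16.7%, was near the 16.5% of all genes.

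**Figure D5:**
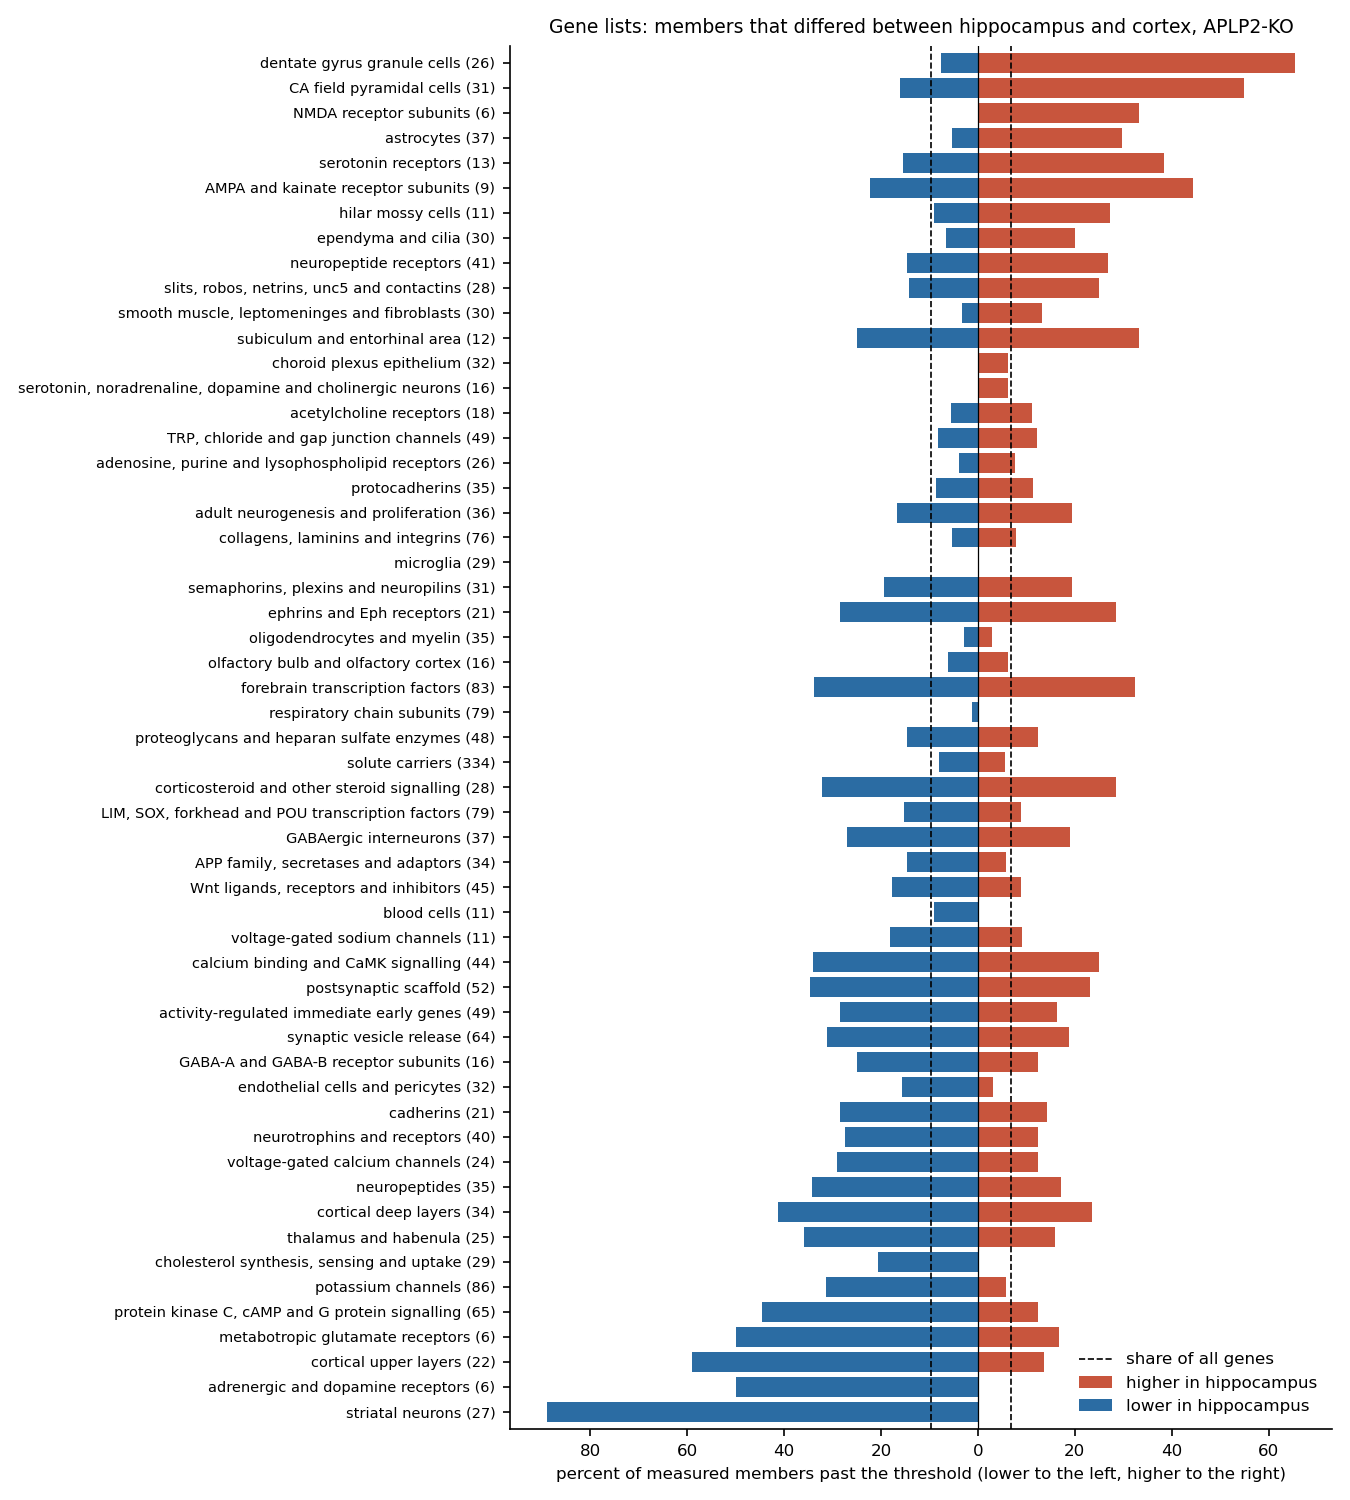
Share of each list's measured members (number in brackets) that were higher (right) or lower (left) in hippocampus at an adjusted p under 0.05, with dashed lines at the shares of all genes, 6.78% and 9.70%. Dentate and CA lists stand furthest to the right and the striatal list furthest to the left.

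No member of the amyloid precursor family itself passed the test between tissues. App differed by 0.00 (adjusted p = 0.987), Aplp1 by -0.03 and Aplp2 by -0.08. Of 34 genes of the family, its secretases and its adaptors 2 were higher and 5 lower, 4 and 5 with each gene's probe sets averaged, and 1 and 4 without any 1 array other than cortex replicate 1. The share of these genes called, 20.6%, was near the 16.5% of all genes. Mme, neprilysin, which degrades amyloid beta, read 7.25, 7.12 and 6.83 in cortex and 6.14, 5.74 and 5.37 in hippocampus, a difference of -1.32. Aph1a, a subunit of gamma-secretase, differed by -0.85, Dab1, an adaptor, by 0.50 and Apbb1, the adaptor Fe65, by -0.30.

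The same contrast was measured in APPsα-DM mice on other arrays. There 4789 probe sets (10.6%) and 2534 genes (13.9%) were called, 6.59% of genes higher and 7.34% lower in hippocampus. Of the 2998 genes called in APLP2-KO, 2068 were called in the same direction in APPsα-DM, which is 69.0% of the APLP2-KO calls and 81.6% of the APPsα-DM calls. By sign alone 2978 of the 2998 agreed. The sign agreement over all genes was not counted, so the 2978 have no background to be read against. The arrays differ, but both contrasts came from the same fit, with a variance for each probe set shared by the genotypes. A gene of small variance can therefore be called in both, and the overlap of calls is not independent replication. In APPsα-DM Dsp differed by 5.02, C1ql2 by 4.61 and Scn4b by -3.40. The difference of the tissue effect between genotypes passed the test for 0 of 45037 probe sets in limma, with 1705 (3.79%) at an unadjusted p under 0.05, so no tissue difference can be called particular to APLP2-KO. Among the genes of smallest unadjusted p, Lpl, lipoprotein lipase, differed by 1.29 in APLP2-KO and 0.80 in APPsα-DM (adjusted p = 1.00). Igfbp6, which binds insulin-like growth factor 2, differed by -1.93 and -1.01, and Plcd3, a phospholipase C, by -0.72 and -0.31. These are values that did not pass.

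Where a gene had several probe sets they mostly ran 1 way. Of 9010 genes with more than 1 probe set, 1050 had at least 2 called, and in 1034 of these all ran in 1 direction. In the other 16 they ran in both. Camk2a, the alpha subunit of the calcium/calmodulin kinase, had 1 probe set higher by 0.67 and another at -0.90, and Ntrk2, the BDNF receptor, had 0.47 and -0.61. The call of the Ntrk2 probe set of highest signal, at -0.31, was lost without cortex replicate 2. Gprc5b, an orphan receptor, had 0.40 and -1.07. Probe sets of 1 gene can read different transcripts or transcript ends, and which applies here was not tested. At the top of the signal range Camk2n1, an inhibitor of that kinase, read 13.62, 13.67 and 13.59 in cortex and was lower in hippocampus by a difference of -0.64, and Nsmf read 13.48, 13.37 and 13.42 in cortex and 13.76, 13.76 and 13.74 in hippocampus.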

How the data were processed

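Total RNA was labelled from 1 µg and hybridised to Affymetrix mouse arrays, and the authors deposited log2 values, for which the submitters' processing notes name RMA and affy without versions. RMA pools probes into a value per probe set and equalises the distributions of the arrays, which limits global shifts between tissues. The 64 control probe sets were left out. Of the 45037 tested, 34945 had 1 gene symbol, 932 several and 9160 none, and 34741 were matched to the RefSeq table of GRCm38.p6. limma 3.58.1 in R 4.3.3 fitted 4 group means over 12 arrays (8 residual and 4.25 prior degrees of freedom), two-sided, with Benjamini-Hochberg adjustment over all probe sets. Arrays give no read depth, and 3 per group limit the precision: the median standard error of a difference was 0.0938 log2 units. Same-numbered APLP2-KO arrays deviated together from their group means (correlations 0.1093, 0.1314 and 0.1551 over probe sets), which meets the rule for pairing. The reported fit has no block, so its counts and p-values do not use this pairing. The replicate block is an alternative. In APPsα-DM these were 0.07852, 0.01929 and 0.03721. Named genes were the 20 largest rises and falls whose arrays do not overlap, up to 8 called members and 2 others per list, the App family, the 10 smallest interaction p-values, up to 10 genes with opposite probe sets and the 10 highest called. The members and the gene lists were chosen with earlier results of these data known. Alternatives were the 6 arrays alone, the replicate block, a filter at 6 on 3 arrays, quantile normalization, median centring, a trended and robust prior, the mean over a gene's probe sets, a choroid plexus covariate and leaving out each array.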

Additional observations from a re-analysis of the deposited data

How the results depend on the processing

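The count of 5672 probe sets that differed between the tissues ranged from 4060 to 5017 when 1 APLP2-KO array was left out (2193 to 2584 genes, against 2998), from 475 to 521 for the 581 list members, and from 4997 to 6340 under the other alternatives. With the replicate block, which pairs the same-numbered arrays, 5446 probe sets passed, 2409 higher and 3037 lower, and 21 named calls were lost and 2 gained, besides the calls gained for Gabra2 and Stbd1. Blocking left the difference between genotypes at 0 calls, as did each other alternative that was run. Of 331 named genes that passed, 266 kept the call under every alternative and 65 lost it under at least 1. Centring each array on its median put 38.1% of the calls higher in hippocampus, against 44.6%. With each gene's probe sets averaged the direction reversed for Dpp6 (-0.12), Dtna (0.16), Gprc5b (-0.34) and Syne1 (-0.06), genes whose probe sets were called in opposite directions. Probe sets under 6 log2 units in both tissues numbered 22665, and 931 of them were called, against 5672 of all 45037 probe sets (12.6%). How far such signals lie above background was not measured.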

Other observations

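Of 334 solute carriers 19 were higher in hippocampus and 27 lower, and 10 and 13 without hippocampus replicate 2, 13 and 14 or 13 and 15 without cortex replicate 1 or 2, 16 and 17 or 12 and 18 without hippocampus replicate 1 or 3. The share of solute carriers called, 13.8%, was near the 16.5% of all genes. Slc26a4, the anion exchanger pendrin, read 6.43, 6.17 and 6.45 in cortex and 8.71, 8.73 and 8.81 in hippocampus, and Slc9a2, a sodium/proton exchanger, differed by 1.71. Of 29 genes of cholesterol synthesis, sensing and uptake 0 were higher and 6 lower, and 0 and 3 on the 6 APLP2-KO arrays alone or without any 1 of cortex replicates 1 and 2 and hippocampus replicates 2 and 3. It was 2 and 7 with dim probe sets left out or a trended and robust prior, and 2 and 5 with probe sets averaged. In the reported fit 20.7% of these cholesterol genes were called, near the 16.5% of all genes. Insig1, a sensor of sterols, differed by -0.56, and Cyp46a1, the neuronal cholesterol 24-hydroxylase, by -0.44. Of 30 genes of ependyma and cilia 6 were higher and 2 lower, 11 and 1 without cortex replicate 3, and 4 to 6 and 1 without cortex replicate 1 or 2 or hippocampus replicate 2 or 3. Of 9160 probe sets with no gene symbol 590 were called, and 73 of 932 with several symbols. Over all 45037 probe sets 5672 were called (12.6%), a larger share than in either group.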
